A study of Rattus norvegicus with 16 samples.

Results

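The hippocampus of rats with traumatic brain injury (TBI) was compared with that of untouched, Naïve rats, which asks what injury and surgery together change relative to an undisturbed animal. The comparison rests on 6 of the 16 arrays of the series, those titled as whole hippocampus of TBI replicates 1 to 3 and of Naïve replicates 1 to 3. Each array held the RNA of 1 rat, an adult male Sprague-Dawley per the methods. TBI rats were anaesthetised with isoflurane, prepared surgically and given a severe parasagittal fluid percussion injury, in which a pulse of fluid strikes the intact dura beside the midline, and their hippocampus was taken 24 h later. Naïve rats had no injury and no treatment, per the methods, which describe no surgical preparation for them. Isoflurane was given again before brain tissue was collected, per the methods. TBI vs. Naïve therefore contains the anaesthesia of surgery, the surgery and the injury, which cannot be told apart in it. Sham rats, anaesthetised and prepared in the same way but not injured, were on 2 further arrays, and their values are given beside those of the 6. The rats that received JM6, PMI-006 or estradiol after TBI enter only through the shared estimate of the spread of each probe and the choice of probes tested.

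The hippocampus consists of layers of excitatory granule and pyramidal neurons with scattered inhibitory interneurons, among astrocytes, microglia, oligodendrocytes and vessels. After mechanical injury, microglia and astrocytes become reactive, vessels and glia release chemokines that draw in monocytes and neutrophils, and damaged tissue releases alarm signals that are read by Toll-like receptors and relayed by NF-kappaB. Cytokines of the interleukin-6 family act through STAT3, which is known to drive acute-phase genes and the reactive state of astrocytes, and protein damage is answered through heat shock elements in promoters.

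Stretches of promoter sequence are shown for 6 genes that rose in TBI, to let the results below be read beside them: each was picked because it holds a short motif known to be bound by one of these factors. None of the motifs marked was in more than 7.35% of the promoters of genes called higher, so the 6 do not stand for the other rises. Only 1 motif is marked per gene, and Ccl7 also holds an AP-1 motif at -73 and Serpina3n a heat shock element at -161 from the start. They are RefSeq promoters of build GRCr8, and each line gives 100 bases that end before the start of the gene, 5′ to 3′ on the strand of the gene, with every match of the searched motif in capitals (GGANNTTCC for NF-kappaB in the first 4, GAANNTTC for the heat shock element in Hspb1, TTCNNNGAA for STAT in Serpina3n). In order they lie at chr3:36081931-36082030 (minus strand), chr14:17479362-17479461 (minus), chr10:67513975-67514074 (plus), chr20:3626435-3626534 (plus), chr12:26432392-26432491 (minus) and chr6:129088212-129088311 (plus).
Lcn2: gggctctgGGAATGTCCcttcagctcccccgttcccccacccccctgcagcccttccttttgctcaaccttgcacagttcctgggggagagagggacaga
Cxcl1: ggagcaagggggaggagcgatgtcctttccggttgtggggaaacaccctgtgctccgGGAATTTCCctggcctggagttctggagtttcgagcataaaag
Ccl7: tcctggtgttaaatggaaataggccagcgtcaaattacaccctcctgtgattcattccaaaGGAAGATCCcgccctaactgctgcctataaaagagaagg
Tnf: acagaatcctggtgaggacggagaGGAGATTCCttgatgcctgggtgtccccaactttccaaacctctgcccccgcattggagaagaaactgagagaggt
Hspb1: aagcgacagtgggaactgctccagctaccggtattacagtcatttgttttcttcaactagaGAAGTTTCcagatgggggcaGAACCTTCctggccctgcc
Serpina3n: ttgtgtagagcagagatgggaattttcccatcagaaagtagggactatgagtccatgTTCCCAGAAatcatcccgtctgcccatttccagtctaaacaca

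Over all genes, promoters of 250 bases before to 50 bases after the start were searched on both strands. The NF-kappaB motif was in 26 of the 381 promoters found for the 496 genes called higher in TBI (6.82%) and in 7 of those found for the 306 genes called lower (2.90%). It was in 4.42% of the 11390 promoters of all tested genes and in 4.08% of the 27457 promoters of the table. An AP-1 motif (TGANTCA) was in 8.92% of promoters of genes called higher and 4.15% of those called lower, with 5.43% among tested genes, and the heat shock element was in 6.82%, 3.73% and 5.87%. For STAT the shares were 7.35%, 5.39% and 7.06%, for the E-box (CACGTG) 9.71%, 6.64% and 8.86%, and for the cyclic AMP response element (TGACGTCA) 1.57%, 1.66% and 2.93%. In all promoters of the table the heat shock element (8.34%) and STAT (8.68%) were more common than in genes called higher. The same share was 7.33% for AP-1, 6.65% for the E-box and 1.91% for the cyclic AMP response element. These shares are counts of letters in a window and were not tested, and a base may lie in matches of more than 1 motif.

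A level below is log2 of the background-subtracted intensity of a probe divided by the array's own 75th percentile, taken over probes well above background, so that 0 is that percentile and 1 unit is a doubling. Differences are TBI minus Naïve on this log2 scale, with the standard error (SE) of the limma model, and folds are the same differences on a linear scale. Calls rest on limma's p-values over 22827 tested probes, adjusted after Benjamini and Hochberg, with a limit of 0.05. Replicates were single rats, with nothing stated on litter or surgery day. From 16282 to 18245 of 30367 probes were well above background on the Naïve, Sham and TBI arrays. Naïve 3 shared a slide with the 3 TBI arrays, and Naïve 1 and 2 shared a slide with the Sham arrays.

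The replicates were not alike. Over the probes TBI 2 and TBI 3 correlated at 0.982 with each other, while TBI 1 correlated at 0.964 with TBI 2, 0.976 with TBI 3, and 0.972 and 0.974 with the Sham arrays. Among the probes called higher with a value on all TBI arrays, TBI 1 was the lowest TBI rat in 515 of 676 and TBI 2 the highest in 516. The median excess of these probes over the Naïve mean was 1.08 in TBI 1, 1.90 in TBI 2 and 1.59 in TBI 3, and 0.26 and 0.72 in the Sham rats. For probes called lower the TBI rats were close together, at -0.93, -1.01 and -1.18, with -0.64 and -0.45 in the Sham rats. Naïve 2 differed from the other Naïve rats in transthyretin (Ttr), made by choroid plexus. Ttr read 1.55, 6.24 and 1.2 in Naïve 1 to 3, 6.90 and 2.25 in the Sham rats and 1.77, -1.23 and -2.91 in the TBI rats. Sham 1 thus read higher than Naïve 2, and a difference in the tissue dissected was not tested. Ttr was not called (difference -3.79 ± 2.19 (SE), adjusted p = 0.36 by limma).

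Of the 22827 probes, 1074 were called in TBI vs. Naïve (4.7%), 680 of them higher (2.98%) and 394 lower (1.73%). By the same fit 2146 were called in TBI vs. Sham (9.4%) and 1842 in Sham vs. Naïve (8.07%). The 3 comparisons share arrays, so their calls are not set against each other. The called probes covered 496 genes that rose and 306 that fell, of 14016 genes with a tested probe. Among the called probes 214 rose over 4-fold and 35 fell over 4-fold. The filter took probes above background in every rat of any group, and the drug groups were injured as well. Probes dim in Naïve rats thus had more groups to enter by than probes dim in injured rats. The 4-fold counts were not repeated on probes above background on all 6 arrays, so they cannot decide whether rises were larger than falls. Many called probes were dim: 407 of those called higher and 305 of those called lower were above background on all 6 arrays. A further 66 were above background in every TBI and no Naïve rat, and 20 in every Naïve and no TBI rat. Another 26 called higher and 6 called lower were above background in no TBI and no Naïve rat. These were tested only because another group passed the filter.

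The balance of rises and falls moved with the scaling. It was 680 to 394 here, 682 to 584 with quantile normalization, 1013 to 833 with the 75th percentile over all probes, 1030 to 939 with a trend on probe GC content removed, and 900 to 38 when arrays were scaled to the E1A spike-in spots, which moved the median difference of all probes from 0.04 to 0.41. On the spike-in scale the rises were larger and most falls were not called: 70 of 72 rises and 14 of 52 falls among the genes chosen to be named were still called, and all kept their direction. Falls are therefore given relative to the bulk of probes on the array.

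The calls also leaned on which arrays were in the fit and on single rats. All Naïve, Sham and TBI arrays were of scanning session 1 and all drug arrays of session 2. On the drug arrays 20259 to 24984 probes were well above background, against 16282 to 18245 on the others. With the 8 Naïve, Sham and TBI arrays alone, 44 probes were called. Leaving out the drug arrays changes both the session and the number of arrays, which cannot be told apart. With the spread taken from the 6 arrays alone, 15 probes were called and 3672 had an unadjusted p under 0.05, against 4761 in the fit over all arrays. Leaving out TBI 1 raised the count to 2038, and the count was 394 without TBI 2, 295 without TBI 3, 283 without Naïve 1, 736 without Naïve 2 and 651 without Naïve 3. Within the slide that held Naïve 3 and the TBI rats 215 probes were called, 111 higher and 104 lower. With slide as a fixed block over the 8 arrays, 43 were called, 3 of them higher and 40 lower, and only 2 of these were among the 1074. Under that block 1 of the 124 called genes chosen to be named was still called, and 0 turned direction. Of the same 72 rises, 43 were called with any single rat left out, and of the 52 falls, 11.

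**Figure D1:**
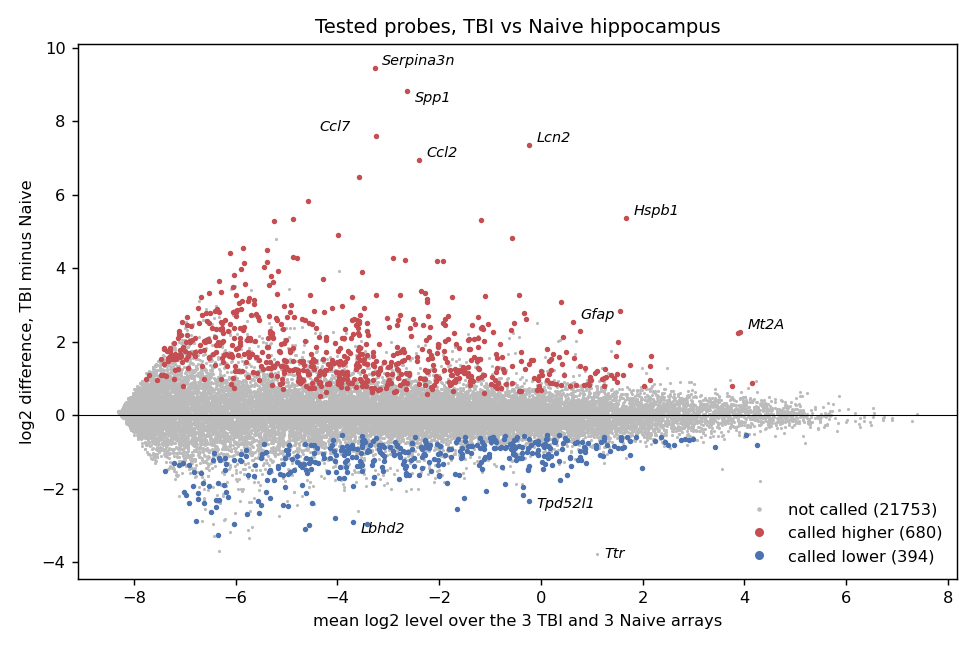
Each point is a tested probe, with the mean log2 level over the 3 TBI and 3 Naïve arrays on the horizontal axis and the log2 difference, TBI minus Naïve, on the vertical axis. Red points are the 680 probes called higher and blue points the 394 called lower (limma, adjusted p under 0.05), and the red points reach over 9 units above 0 while the blue points stay within 4 units below it (on the spike-in scale 38 probes in all were called lower).

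The largest rises belonged to secreted acute-phase and matrix proteins, chemokines and a small heat shock protein. Lipocalin 2 (Lcn2, probe at chr3:11511592-11511651 in rn4), an iron-siderophore binding protein of reactive astrocytes and neutrophils, read -5.04, -2.75 and -3.94 in Naïve 1 to 3, -3.91 and -3.94 in the Sham rats and 1.25, 4.55 and 4.51 in TBI 1 to 3. Every TBI rat lay above every Naïve and Sham rat. The difference was 7.35 ± 0.77, or 163-fold (adjusted p = 0.0018 by limma). Heat shock protein 27 (Hspb1, chr12:21911494-21911664 in rn4), a chaperone that protects the cytoskeleton, read -1.35, -0.22 and -1.43 in Naïve, -0.94 and -0.02 in Sham and 3.52, 4.71 and 4.85 in TBI rats. The groups again did not overlap, and Hspb1 rose by 5.36 ± 0.53, or 41.1-fold (adjusted p = 0.0018).

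Serpina3n (chr6:128469197-128469256 in rn4), a secreted inhibitor of serine proteases and a marker of reactive astrocytes, was below background in all Naïve rats, at -8.02, -7.99 and -7.96, and in 1 Sham rat, at -8.08, with the other at -3.28. The TBI rats read -0.26, 2.16 and 2.46, at least 181-fold higher than the Naïve rats (adjusted p = 0.0018), the bound being set by the dimmest probes above background. Osteopontin (Spp1, chr14:6422382-6422441 in rn4), a matrix protein of activated microglia and macrophages, was below background in Naïve rats at -7.83, -6.40 and -6.88 and read -0.42, 3.25 and 2.51 in TBI rats, at least 227-fold higher (adjusted p = 0.0027). The Sham rats read -5.88 and -3.04 for Spp1, between the other groups. Others below background in every Naïve rat and above it in every TBI rat were S100a8, at least 22.4-fold higher, the leukocyte protease inhibitor Slpi, at least 21.1-fold, and the replication licensing factor Mcm5, at least 11.8-fold (adjusted p = 0.0018 to 0.0027).

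Further large rises, above background in all 6 rats, were those of galectin 3 (Lgals3, 5.32 ± 0.79), a lectin of phagocytes, the metalloproteinase inhibitor Timp1 (4.83 ± 0.68), the neutrophil protein S100a9 (4.29 ± 0.72), the tubulin Tubb6 (4.23 ± 0.71), the imprinted non-coding RNA H19 (4.21 ± 0.67) and the lipopolysaccharide co-receptor Cd14 (4.21 ± 0.58). The TWEAK receptor Tnfrsf12a (3.32 ± 0.58), the phagocyte glycoprotein Gpnmb (3.28 ± 0.51), the asparaginase Aspg (3.27 ± 0.58) and the NADPH oxidase subunit Ncf4 (3.27 ± 0.40) followed. For all of these the TBI rats lay above the Naïve rats, and the adjusted p was 0.0027 to 0.0115. TBI 1 was the lowest of the TBI rats for each of the 12 largest rises among genes above background in all 6 rats. All of these but Aspg were called with any single rat left out, and Aspg had an adjusted p of 0.0501 without TBI 3.

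**Figure D2:**
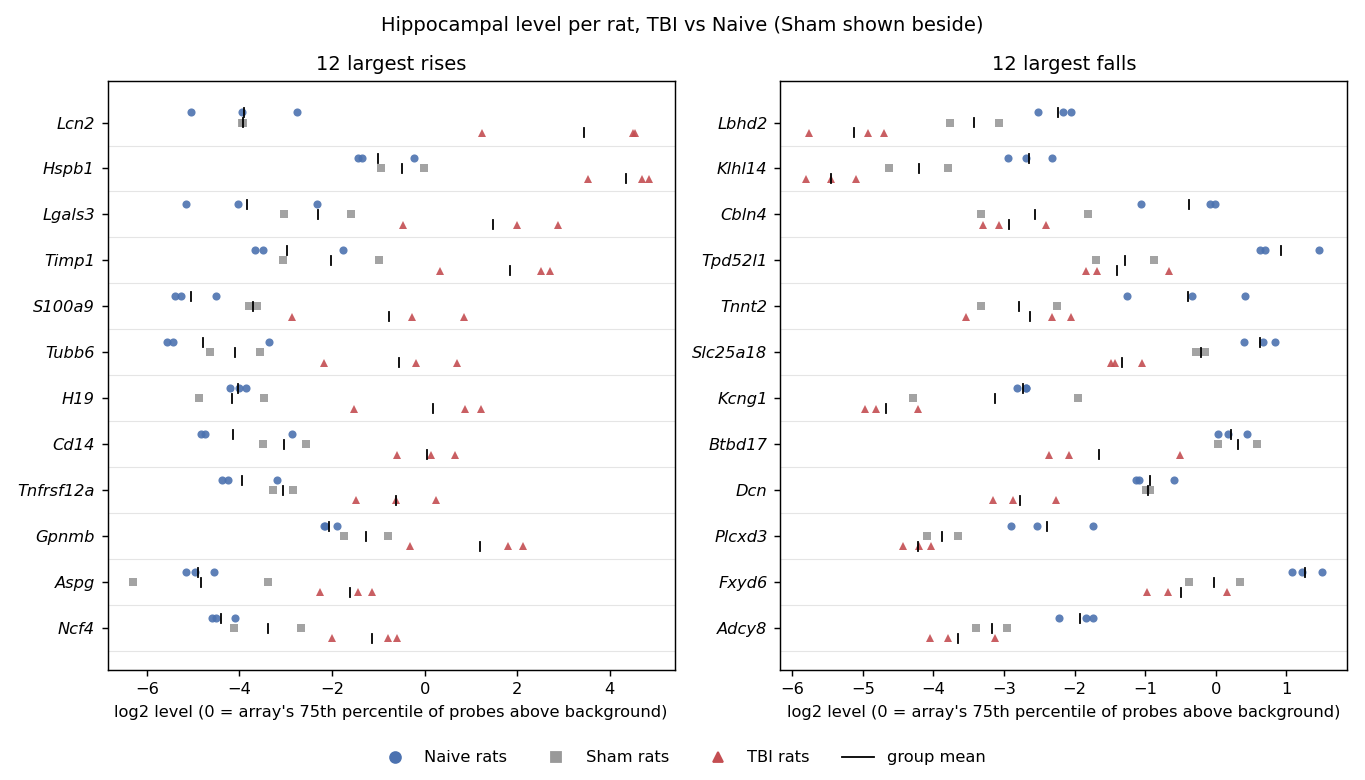
Levels in single rats (log2, with 0 at the 75th percentile of probes above background on the array) for the 12 genes with the largest rise, left, and the 12 with the largest fall, right, among genes above background in all 6 rats whose groups did not overlap. Circles are Naïve, squares Sham and triangles TBI rats, with bars at the group means. Sham rats sit near Naïve for Lcn2, Hspb1, Btbd17 and Dcn and near TBI for Tpd52l1 and Tnnt2, and 4 of the 12 falls (Tnnt2, Kcng1, Btbd17 and Fxyd6) were not called on the spike-in scale.

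Over all tested probes 2.98% were called higher and 1.73% lower, and the list counts from here on are to be read beside these shares. Of the 20 tested acute injury and acute-phase genes, 12 rose and 0 fell, with a median difference of 3.11 where the median over all genes, with 1 probe per gene, was 0.0097. The list was drawn up with earlier results of these data known. Lcn2, Serpina3n, Timp1, Cd44, Emp1, Cp and Ptx3 count again among reactive astrocyte markers, and Cd14, Lgals3 and Gpnmb among macrophage markers. The counts of these lists are therefore not separate. On the shared slide 7 were called, with a median of 3.30. The hyaluronan receptor Cd44 rose by 3.25 ± 0.35 (adjusted p = 0.0018), from -2.74, -2.52 and -2.89 in Naïve to -0.26, 1.08 and 0.77 in TBI rats, with Sham rats at -2.33 and -2.14. Another probe of Cd44 rose by 1.61 (adjusted p = 0.019), and the last read 0.58 (adjusted p = 0.32). Urokinase (Plau) rose at least 3.53-fold from below background, and the syndecan Sdc1 (3.90), the protease inhibitor A2m (1.74) and the decoy interleukin-1 receptor Il1r2 also passed the test. Among members not called, Emp1 read 1.89 higher (adjusted p = 0.076), and the brighter probe of the ferroxidase ceruloplasmin (Cp) 1.35 higher (adjusted p = 0.18), while its other probe rose by 2.59 (adjusted p = 0.034).

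Chemokines rose in 7 of 28 tested genes and fell in 0, with a median difference of 0.49. The monocyte attractants led. Ccl7 read -8.24, -5.56 and -7.35 in Naïve, -7.44 and -5.46 in Sham and 0.91, 0.51 and 0.23 in TBI rats, a difference of 7.60 ± 0.84 (adjusted p = 0.0018). Ccl2 read -7.15, -4.31 and -6.13 in Naïve, -7.46 and -5.10 in Sham and 0.48, 1.75 and 1.0 in TBI rats, a difference of 6.94 ± 0.88 (adjusted p = 0.0027). Both were above background in 1 of 3 Naïve rats, so their folds are imprecise, but all TBI rats stood over 4 units above the highest Naïve rat. Unlike most rises, Ccl7 was highest in TBI 1.

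The neutrophil attractant Cxcl1 was below background in all Naïve and Sham rats and rose at least 6.72-fold (adjusted p = 0.0094). The B cell attractant Cxcl13, above background in 1 of 3 Naïve rats and so imprecise in its fold, rose by 3.79 ± 0.80 (adjusted p = 0.021), with Sham rats at -5.39 and -3.51 against TBI rats at -4.88, -3.24 and -2.13. Cxcl13 was not called without TBI 2, TBI 3, Naïve 1 or Naïve 3 (adjusted p up to 0.085). The other called members were Ccl3, Ccl4 and Cxcl16 (1.85). The neuronal chemokine Cx3cl1 read -0.43 (adjusted p = 0.44) and Cxcl14 0.24 (adjusted p = 0.40). With TBI 2, TBI 3, Naïve 1 or Naïve 3 left out 3 chemokines were called, and on the shared slide 2.

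Cytokines rose in 4 of 21 tested genes and fell in 0. Clcf1, a member of the interleukin-6 family, was below background in Naïve rats and rose at least 10.2-fold (adjusted p = 0.0044), with levels of -3.15, -1.88 and -2.95 in TBI and -4.45 and -4.29 in Sham rats. Tumour necrosis factor (Tnf) read -5.23, -5.78 and -7.53 in Naïve, -6.66 and -5.27 in Sham and -3.52, -3.38 and -3.64 in TBI rats and rose by 2.67 ± 0.50 (adjusted p = 0.013), with 1 of 3 Naïve rats above background. The interleukin-1 receptor antagonist Il1rn, above background in 1 of 3 Naïve rats, rose by 2.80 ± 0.69 and the macrophage growth factor Csf1 by 0.81 ± 0.21, and both calls were lost without TBI 2, TBI 3, Naïve 1 or Naïve 3 (adjusted p up to 0.15 and 0.17). Interleukin 1 beta (Il1b) read -7.52 in TBI 1, within the Naïve range of -7.94 to -7.37, and -3.56 and -4.59 in TBI 2 and TBI 3, and it was not called (adjusted p = 0.083).

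Toll-like receptor and NF-kappaB genes rose in 7 of 28 and fell in 0, with a median of 0.72. Besides Cd14 these were the receptors Tlr7 (1.28 ± 0.29) and Tlr4, the adaptor Myd88 (1.10), the NF-kappaB cofactor Bcl3 (2.63 ± 0.46), Nfkbiz and the inflammasome protease Casp1 (1.57 ± 0.29). Bcl3 was called with any rat left out, but it and Tlr4 were above background in 1 of 3 Naïve rats. Casp1 was lost without TBI 3 (adjusted p = 0.056), and Tlr7 without TBI 2, TBI 3 or Naïve 1 (up to 0.11). The inhibitor Nfkbia read 0.03 ± 0.51 with overlapping groups. The list had 15 calls without TBI 1 and 2 or 3 without TBI 2, TBI 3 or Naïve 1.

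Among 28 JAK-STAT genes 3 rose, with a median of 0.37. The transcription factor Stat3 read -4.35, -3.87 and -4.69 in Naïve, -5.07 and -4.24 in Sham and -3.15, -2.60 and -2.65 in TBI rats and rose by 1.51 ± 0.29 (adjusted p = 0.016). Its feedback inhibitor Socs3 was below background in Naïve rats and rose at least 3.65-fold (adjusted p = 0.035), and Socs4 rose by 0.85 ± 0.20. Stat3 lost its call without TBI 2, TBI 3 or Naïve 1 (adjusted p up to 0.064), Socs4 without any rat but TBI 1 (up to 0.11) and Socs3 without any rat but Naïve 3 (up to 0.135).

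Of 34 interferon-stimulated genes 4 rose: the STAT partner Irf9 (1.23 ± 0.22), the antiviral membrane protein Ifitm3 (2.49 ± 0.48) and the guanylate-binding proteins Gbp2 (1.94 ± 0.44) and Gbp5 (0.99 ± 0.26, with 0.48 at a second probe, not called). The median of the list was 0.91, and the list median in single rats was 0.09 in TBI 1, 1.44 in TBI 2 and 0.89 in TBI 3. The count was 12 without TBI 1 and at most 2 without TBI 2, TBI 3, Naïve 1 or Naïve 3, where Gbp2 and Gbp5 were lost (adjusted p up to 0.11 and 0.16). Ifitm3 was lost without TBI 2, TBI 3 or Naïve 1 (up to 0.065) and Irf9 without Naïve 1 (0.052). Irf9 was also higher in Sham than in Naïve rats, by 0.91 (adjusted p = 0.041).

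Complement genes rose in 5 of 22, with a median of 0.31. The anaphylatoxin receptor C3ar1 was below background in Naïve and Sham rats and rose at least 2.78-fold (adjusted p = 0.0025). C5ar1, the receptor for C5a on neutrophils and macrophages, rose by 2.45 ± 0.43 from -5.25, -4.08 and -5.23 in Naïve to -3.25, -1.58 and -2.38 in TBI rats (adjusted p = 0.011), with Sham rats at -5.58 and -5.30. The C1 inhibitor Serping1 rose by 2.37 ± 0.55 on 2 TBI values, the C1q chain C1qc by 1.26 ± 0.31 and the protease C1s by 1.49. C1qc was not called when any of the rats was left out (adjusted p up to 0.12), and Serping1 was not called without TBI 2, TBI 3, Naïve 1 or Naïve 3 (up to 0.21). The abundant C1qb (0.92 ± 0.29, adjusted p = 0.096) and clusterin (Clu, 0.28 ± 0.21) were not called.

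**Figure D3:**
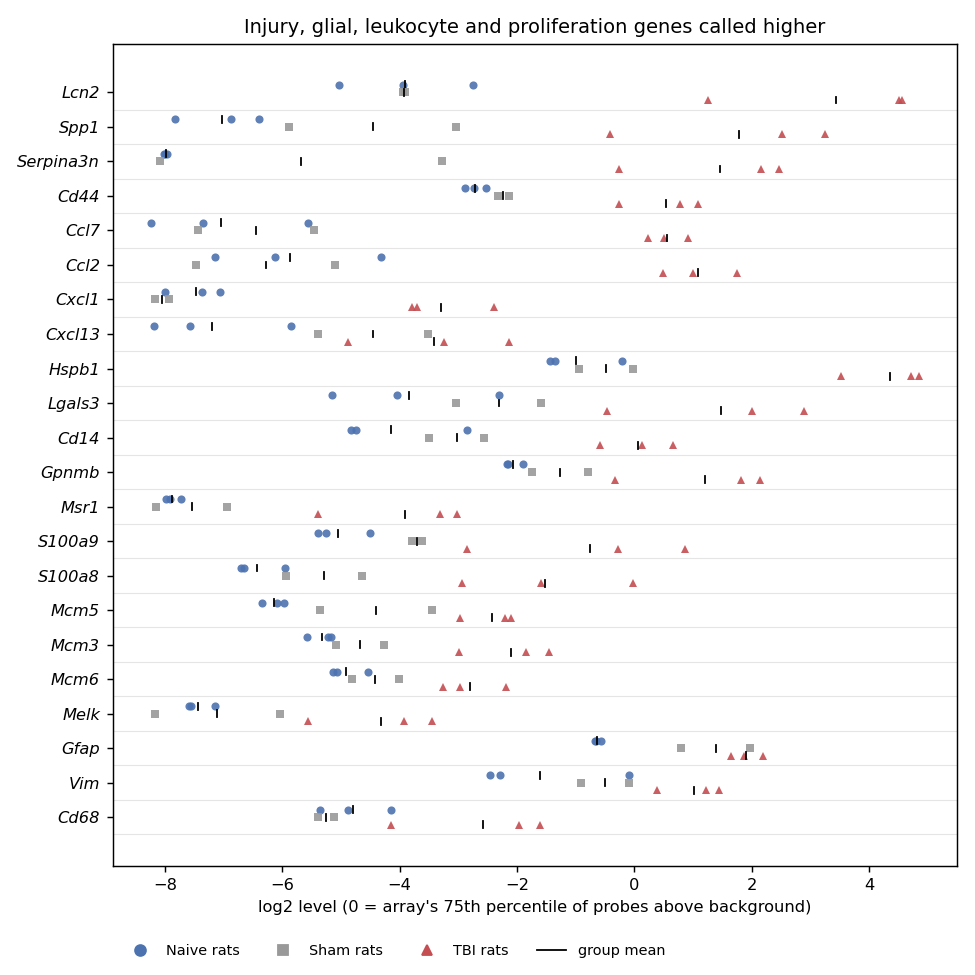
Levels in single rats (log2, with 0 at the 75th percentile of probes above background on the array) for acute-phase, chemokine, glial, leukocyte and replication genes called higher in TBI vs. Naïve. Circles are Naïve, squares Sham and triangles TBI rats, with bars at the group means. Every triangle lies to the right of every circle in its row, and at least 1 Sham square lies among the triangles for Gfap and Cxcl13.

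Markers of reactive astrocytes rose in 12 of 23 tested genes and fell in 0, with a median of 2.46. The intermediate filament Gfap (chr10:92060835-92060894 in rn4) read -0.66, -0.57 and -0.66 in Naïve, 1.97 and 0.80 in Sham and 1.64, 2.20 and 1.87 in TBI rats. TBI and Sham rats overlapped, and both lay above Naïve. Gfap rose by 2.53 ± 0.32 in TBI vs. Naïve (adjusted p = 0.0027) and by 2.02 in Sham vs. Naïve (adjusted p = 0.0077), and it differed by 0.52 in TBI vs. Sham (adjusted p = 0.39). Vimentin (Vim) rose by 2.63 ± 0.52 (adjusted p = 0.017), a call lost without TBI 2, TBI 3, Naïve 1 or Naïve 3 (adjusted p up to 0.071). The filament Nes (2.46), the sphingosine receptor S1pr3 (not above background in any Naïve rat) and the annexin partner S100a10 (1.62) were also called. The list median per rat was 1.53, 2.95 and 2.50 in TBI 1 to 3, and -0.07 and 0.91 in the Sham rats. On the shared slide 8 of the 23 were called, with a median of 2.66.

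Homeostatic astrocyte genes, which serve transmitter uptake, potassium buffering and coupling, rose in 0 and fell in 3 of 20, with a median of -0.33 that became 0.03 on the spike-in scale, where 0 were called. The bicarbonate transporter Slc4a4 read -1.15, -1.24 and -1.39 in Naïve, -2.05 and -1.69 in Sham and -2.0, -3.03 and -2.69 in TBI rats and fell by 1.32 ± 0.22 on the log2 scale (adjusted p = 0.0094), with -0.52 at its other probe, not called. The gap junction gene Gjb6 (-1.61 ± 0.41) and Aldh1l1 (-0.80 ± 0.21) also fell. Gjb6 kept its call only without TBI 1 and Aldh1l1 only without Naïve 3 (adjusted p otherwise up to 0.14 and 0.16). In whole tissue, fewer cells of a type and less RNA per cell cannot be told apart. The glutamate transporter Slc1a3 read -0.19 ± 0.18 with overlapping groups. Outside the list, the mitochondrial glutamate carrier Slc25a18 fell by 1.96 ± 0.25 (adjusted p = 0.0027), from 0.84, 0.67 and 0.40 in Naïve to -1.04, -1.43 and -1.49 in TBI rats, with Sham rats between them at -0.15 and -0.28. Its fall was called with any rat left out, on the spike-in scale and on the shared slide.

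Macrophage and activated microglia markers rose in 12 of 28 and fell in 0, with a median of 1.47, whereas homeostatic microglia markers rose in 1 of 18 (C1qc) and fell in 0, with a median of -0.18. Beside Lgals3, Cd14 and Gpnmb, the scavenger receptor Msr1 was below background in all Naïve and Sham rats and rose at least 4.41-fold (adjusted p = 0.0045), and the Fc receptors Fcgr1a (1.93), Fcgr2b (1.47) and Fcgr3a (2.28), the phosphatase Ptprc (1.85) and Chi3l1 (1.47) rose. The lysosomal protein Cd68 read -5.35, -4.15 and -4.88 in Naïve and -4.14, -1.61 and -1.97 in TBI rats and rose by 2.22 ± 0.53 (adjusted p = 0.035). TBI 1 was level with the highest Naïve rat for Cd68, and the call was lost without TBI 2, TBI 3, Naïve 1 or Naïve 3 (adjusted p up to 0.13). Iba1 (Aif1) was 0.81 ± 0.23 higher at its brighter probe (adjusted p = 0.069) and rose by 0.86 at the other (adjusted p = 0.019). The signalling adaptors Tyrobp (1.29, adjusted p = 0.053) and Fcer1g (0.91, adjusted p = 0.087) were above all Naïve rats without passing the test. The list had 19 calls without TBI 1, 6 without TBI 2, TBI 3 or Naïve 1, 7 without Naïve 3, and 2 on the shared slide.

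Neutrophil and lymphocyte genes rose in 6 of 22 and fell in 1. S100a8 read -5.95, -6.71 and -6.65 in Naïve, -5.94 and -4.65 in Sham and -2.94, -0.02 and -1.60 in TBI rats. The integrin Itgal, above background in 2 TBI rats, was called, as were Il1r2 and the T cell receptor subunit Cd3e, each below background in Naïve and above it in every TBI rat. The cathelicidin Camp, a granule protein of neutrophils, went the other way, at least 2.88-fold lower (adjusted p = 0.013), and was below background in both Sham and all TBI rats. Camp was not called without TBI 3 (adjusted p = 0.056). The uncalled neutrophil receptors Csf3r and Cxcr1 read 1.39 and 1.48 higher (adjusted p = 0.0715 and 0.389). The level summed over the list was -1.61 to -1.53 in Naïve, -0.92 and -0.70 in Sham and 0.32, 1.80 and 0.99 in TBI rats. S100a8 and S100a9, themselves picked among the largest rises, are part of that sum, so its rise is not separate from theirs. A part of leukocytes in the other rises was not tested.

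Genes of leukocyte adhesion rose in 6 of 29 and fell in 0. The integrin Itgb2 rose by 1.66 ± 0.21 (adjusted p = 0.0027), from -4.41, -4.31 and -4.43 in Naïve to -3.01, -2.44 and -2.71 in TBI rats, with Sham rats at -3.93 and -3.26, and the endothelial ligand Icam1 rose by 1.44. Itgb2 was called with any rat left out and on the shared slide. The endothelial Vcam1 read -0.72 ± 0.20 (adjusted p = 0.065) and Itgb1 0.41 at its brighter probe (adjusted p = 0.31), with a rise of 0.88 at the other (adjusted p = 0.020). Antigen presentation genes rose in 4 of 28 with a median of 0.77: the class II loading subunits RT1-DMb (1.73 ± 0.25, adjusted p = 0.0044) and RT1-DMa (0.98 ± 0.24), the class I gene RT1-N3 (1.36 ± 0.33) and the costimulator Cd86, at least 2.70-fold. RT1 genes are close paralogs, so their probes may share signal. RT1-DMa kept its call only without TBI 1 (adjusted p otherwise up to 0.11), RT1-N3 was lost without TBI 2, TBI 3, Naïve 1 or Naïve 3 (up to 0.13), and the list had 11 calls without TBI 1, 2 with any single one of these 4 rats left out and 1 on the shared slide.

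Of 36 proliferation genes 20 rose and 0 fell, with a median of 1.72, and 32 had an unadjusted p under 0.05 with a positive difference. The rises included the replicative helicase (Mcm2, Mcm3, Mcm5, Mcm6 and Mcm7), the nucleotide enzymes Rrm2 (2.72), Tyms and Tk1 (1.37), the clamp Pcna (1.5), the cyclins Ccna2 (2.36), Ccnb1 (1.76) and Ccnd1 (1.24) and the kinase Cdk1 (2.74). Mcm5 read -6.08, -5.97 and -6.35 in Naïve, -5.36 and -3.45 in Sham and -2.98, -2.20 and -2.10 in TBI rats. Mcm3 read -5.17, -5.57 and -5.22 in Naïve, -5.08 and -4.26 in Sham and -3.00, -1.46 and -1.84 in TBI rats and rose by 3.22 ± 0.43 (adjusted p = 0.0036). For both, all TBI rats lay above all Naïve and Sham rats.

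Mcm6 rose by 2.10 ± 0.33 (adjusted p = 0.0069), and the mitotic kinase Melk at least 3.32-fold from below background. Mcm3, Mcm5 and Mcm6 were called with any rat left out, and Melk was lost without TBI 2, TBI 3 or Naïve 1 (adjusted p up to 0.056). The count for the list rested on the rats used: 30 without TBI 1, 4 without TBI 2, 5 without TBI 3, 4 without Naïve 1 and 8 without Naïve 2 or Naïve 3, with medians of 1.28 to 2.25, and 2 on the shared slide with a median of 1.90. The list median per rat was 0.73, 2.72 and 1.95 in TBI 1 to 3 and -0.34 and 0.58 in the Sham rats. Cyclin D2 (Ccnd2), the brightest member, read -0.42 ± 0.22 and was not called, and Mcm4 read 0.71 ± 0.19 (adjusted p = 0.053).

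Stress genes moved in a few members of each list, beside 2.98% of all tested probes called higher and 1.73% called lower. Besides Hspb1, the heat shock proteins and co-chaperones held 1 rise, Hspa2 (1.18 ± 0.29), and 1 fall, Hspa12a (-0.73 ± 0.19), among 29 tested, and the abundant Hspa8 (0.22 ± 0.20) and Hsp90aa1 (-0.09 ± 0.20) had overlapping groups. Of 29 NRF2 and metal-response genes 2 rose. Metallothionein 2A (Mt2A), a zinc and copper buffer, read 2.74, 2.93 and 2.68 in Naïve, 2.93 and 3.43 in Sham and 4.16, 5.64 and 5.33 in TBI rats. It rose by 2.26 ± 0.34 (adjusted p = 0.0062), and its second probe by 2.23. Haem oxygenase 1 (Hmox1) rose by 3.08 ± 0.72 (adjusted p = 0.032), from -4.05, -3.38 and -3.88 to -1.28, 0.13 and -0.92. Mt2A was called with any rat left out and Hmox1 only when TBI 1 was left out (adjusted p otherwise 0.0572 to 0.115). Hspa2 likewise kept its call only without TBI 1 (otherwise up to 0.13) and Hspa12a only without Naïve 1 (up to 0.13).

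Of 28 DNA damage and integrated stress genes 3 rose: Gadd45a (2.08 ± 0.42), Atf5 (1.02 ± 0.27) and Tp53inp1. Tp53inp1 was above background in no TBI or Naïve rat and was tested only because another group passed the filter. Cdkn1a (0.19 ± 0.20) and Atf4 (0.60 ± 0.28) did not pass. Atf3 read -7.68, -2.73 and -2.79 in Naïve and -3.22, -2.30 and -3.09 in TBI rats, a spread within the Naïve group larger than the difference of 1.53 ± 1.37. Atf5 kept its call only without TBI 1 (adjusted p otherwise up to 0.17), and Gadd45a was lost without TBI 2, Naïve 1 or Naïve 3 (up to 0.064) and Tp53inp1 without TBI 2 or Naïve 1 (up to 0.060). The basic leucine zipper factors Fosl1 and Maff, both below background in Naïve and Sham rats, rose at least 4.41-fold and 1.97-fold (adjusted p = 0.013 and 0.0098) and were the calls among 33 immediate early and activity genes, Fosl1 with an adjusted p of 0.050 without TBI 2. Fos read -2.40, -1.81 and -2.75 in TBI rats, above all Naïve rats at -2.99, -3.35 and -3.12, and was not called (0.84 ± 1.11, adjusted p = 0.74, with the spread taken over all groups of the fit). Bdnf (0.10 ± 0.74) and Arc (-0.90 ± 1.16) were not called either.

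S100 proteins and annexins rose in 5 of 21. S100a4, a calcium-binding protein of reactive white matter astrocytes and leukocytes, read -0.18, 0.45 and 0.18 in Naïve, 0.40 and 1.11 in Sham and 1.86, 3.67 and 3.40 in TBI rats and rose by 2.83 ± 0.40 (adjusted p = 0.0044). S100a3 rose by 1.95 ± 0.32. The abundant astrocyte gene S100b read -0.49 ± 0.18 at its brighter probe (adjusted p = 0.13) and 0.65 at the other. Of 18 regeneration-associated neuronal genes 6 rose, with Tubb6, Hspb1 and the neuropeptides galanin (Gal, 1.87 ± 0.37) and neurotensin (Nts, 1.67 ± 0.32). Neurotensin read -0.05, -1.0 and -0.74 in Naïve, 1.31 and 1.63 in Sham and 1.0, 0.95 and 1.27 in TBI rats, so that Sham rats were at or above the TBI rats (Sham vs. Naïve 2.07, adjusted p = 0.0064). Nts lost its call without TBI 3 (adjusted p = 0.060) and Gal without TBI 2, TBI 3 or Naïve 1 (up to 0.068).

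Growth factor genes held 3 rises and 2 falls among 43, beside 2.98% of all tested probes called higher and 1.73% called lower. The GDNF co-receptor Gfra1 read -4.37, -4.20 and -4.18 in Naïve, -4.03 and -3.66 in Sham and -2.92, -2.55 and -2.64 in TBI rats and rose by 1.55 ± 0.21 (adjusted p = 0.0036). Fgf2, at least 2.27-fold, and Tgfb1 (1.47 ± 0.23) rose as well, with Sham vs. Naïve differences of 1.49 and 1.26 (adjusted p = 0.019 and 0.013) and TBI vs. Sham differences of 0.62 and 0.21 that were not called (adjusted p = 0.27 and 0.64). All 3 were called with any rat left out and on the shared slide. Gdf10, a member of the TGF-beta family, read -4.52, -3.08 and -3.65 in Naïve, -4.23 and -3.83 in Sham and -5.83, -6.72 and -6.06 in TBI rats, where 1 of 3 was above background. It fell by 2.45 ± 0.37 on the log2 scale (adjusted p = 0.0059) with any rat left out and on the spike-in scale. The neurotrophin receptor gene Ntrk2 fell by 0.98 ± 0.24 on the log2 scale, on 2 Naïve values, and kept its call only without TBI 1 (adjusted p otherwise up to 0.16). Among matrix genes the inhibitor Timp4 (-1.15 ± 0.25) and the glycoprotein Sparc (-0.80 ± 0.21) fell, Timp4 not without TBI 2, TBI 3, Naïve 1 or Naïve 2 (up to 0.10) and Sparc only without TBI 1 (otherwise up to 0.15).

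**Figure D4:**
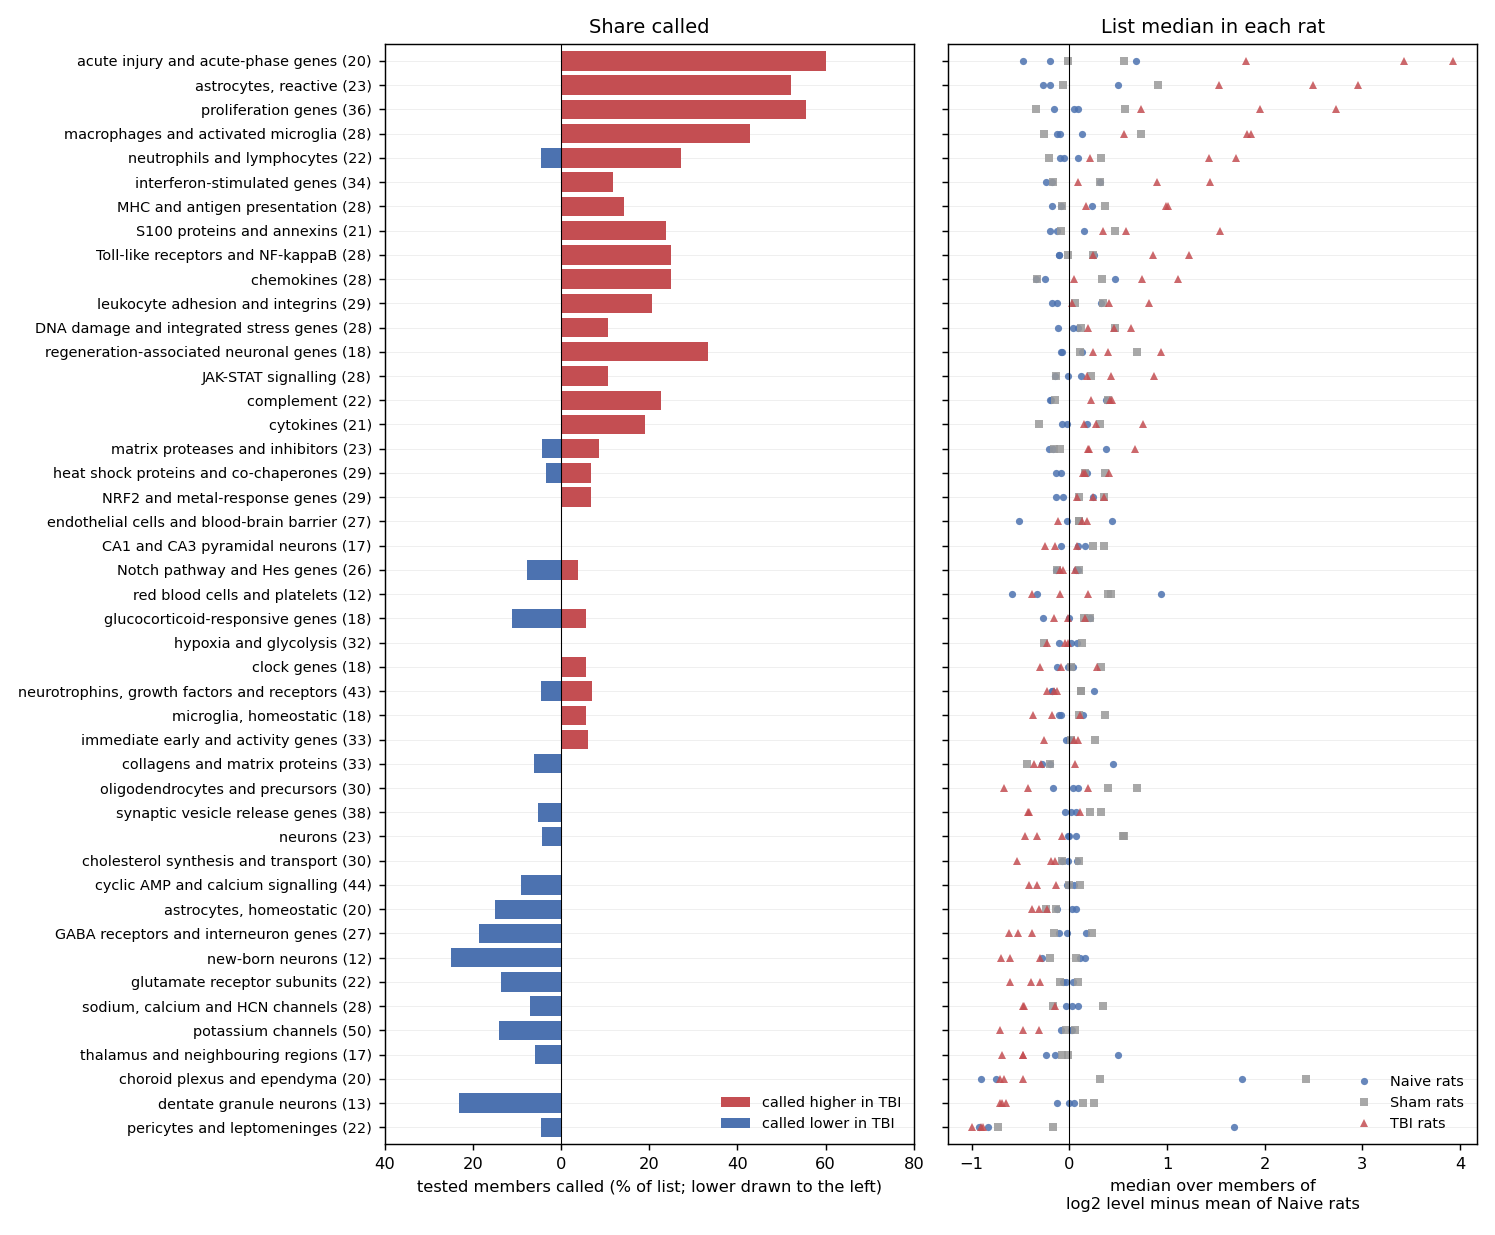
Left, the share of the tested members of each gene list called higher (red, to the right) or lower (blue, to the left) in TBI vs. Naïve, in percent, with the number tested in parentheses. Over all tested probes the shares were 2.98% and 1.73%. Right, the list median of log2 level minus the Naïve mean in each rat (circles Naïve, squares Sham, triangles TBI). The acute injury, reactive astrocyte, proliferation and macrophage lists have medians of 1.47 to 3.11 with TBI 1 the leftmost triangle of each, and the medians of most neuronal lists, -0.23 to -0.46, lie near 0 on the spike-in scale.

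Among the genes with the largest falls, Lbhd2 read -2.05, -2.51 and -2.16 in Naïve, -3.07 and -3.77 in Sham and -5.77, -4.92 and -4.70 in TBI rats, a fall of 2.89 ± 0.39 on the log2 scale, or 7.41-fold lower (adjusted p = 0.0036). The groups stood in the order Naïve, Sham, TBI without overlap, and the difference of TBI vs. Sham was -1.71 (adjusted p = 0.030). The Kelch protein Klhl14 read -2.95, -2.32 and -2.68 in Naïve and -5.80, -5.09 and -5.45 in TBI rats, with Sham rats between at -4.63 and -3.79, and differed by -2.80 ± 0.49 (adjusted p = 0.010). The matrix proteoglycan decorin (Dcn), made by meningeal and perivascular fibroblasts, read -1.13, -0.58 and -1.09 in Naïve, -0.93 and -0.98 in Sham and -3.16, -2.27 and -2.87 in TBI rats. Its fall of 1.83 ± 0.28 on the log2 scale (adjusted p = 0.0062) was matched by TBI vs. Sham (-1.81, adjusted p = 0.0083). All 3 were called with any rat left out and on the spike-in scale, and Lbhd2 on the shared slide.

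Several falls were as low in Sham as in TBI rats. Tpd52l1 read 0.62, 1.46 and 0.69 in Naïve, -1.69 and -0.87 in Sham and -1.68, -0.66 and -1.84 in TBI rats, a difference of -2.32 ± 0.47 (adjusted p = 0.019), with its 3 probes all called. The synaptic organiser Cbln4 read -0.08, -1.06 and -0.02 in Naïve, -3.33 and -1.81 in Sham and -3.06, -2.40 and -3.30 in TBI rats (-2.54 ± 0.58, adjusted p = 0.029). For both, Sham and TBI rats overlapped below all Naïve rats, and TBI vs. Sham differed by -0.11 and -0.36 (adjusted p = 0.92 and 0.77). The cardiac troponin gene Tnnt2 differed by -2.24 ± 0.55 in TBI vs. Naïve and by -2.40 in Sham vs. Naïve (adjusted p = 0.037 and 0.032). The F-box gene Fbxl20, at least 3.37-fold lower in TBI, was below background in both Sham rats. These calls depended on single rats: Tpd52l1 was lost without TBI 3, Naïve 1 or Naïve 2 (adjusted p up to 0.078), Cbln4 without TBI 2, TBI 3, Naïve 1 or Naïve 3 (up to 0.11), Tnnt2 without any rat but Naïve 1 (up to 0.11), and Fbxl20 without TBI 3 or Naïve 1 (up to 0.067).

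The remaining large falls were Kcng1, Btbd17 (-1.87 ± 0.46), Plcxd3 (-1.83 ± 0.31), the Na,K-ATPase regulator Fxyd6 (-1.77 ± 0.36) and the calcium-stimulated adenylyl cyclase Adcy8 (-1.73 ± 0.28). Sham vs. Naïve also differed for Plcxd3 (-1.48) and Adcy8 (-1.25), with adjusted p = 0.023 and 0.028 by limma. It was -1.29 for Fxyd6 (adjusted p = 0.067) and -0.39 for Kcng1 (0.73). TBI vs. Sham was -0.35 for Plcxd3, -0.48 for Adcy8 and -0.48 for Fxyd6, and none of these was called (adjusted p = 0.35 to 0.56). Plcxd3 and Adcy8 were called with any rat left out, Btbd17 only without TBI 1 (adjusted p otherwise up to 0.14), and Fxyd6 was lost without TBI 3 or Naïve 1 (up to 0.073). Btbd17 read -0.51, -2.36 and -2.08 against 0.45, 0.18 and 0.03 in Naïve and 0.59 and 0.03 in Sham rats (TBI vs. Sham -1.96, adjusted p = 0.034). Genes at the edge of detection were lower by bounds, at least 3.05-fold for Chia, 2.03-fold for Fam20a and 1.91-fold for Slc27a5. Chia lost its call without any rat but TBI 1 (up to 0.098) and Fam20a without TBI 2, TBI 3 or Naïve 2 (up to 0.10).

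Genes of excitation, inhibition and membrane conductance fell in some members of each list and rose in 0 (limma, with 5 of these 6 lists holding 1 member that was higher at an unadjusted p under 0.05, and 1 GABA list member called higher on the spike-in scale and 1 without TBI 2). In glutamate receptor subunits 3 of 22 fell, with a median of -0.41, among them the presynaptic metabotropic receptor Grm8 (-1.59 ± 0.41, above background in 1 of 3 TBI rats) and the NMDA receptor subunit Grin2b, which was above background in 2 Naïve rats and in no TBI rat and read -5.36, -5.67 and -5.82 against -6.58, -7.35 and -6.43 (adjusted p = 0.047). The AMPA receptor subunits Gria1 (-0.43 ± 0.22), Gria2 (-0.29 ± 0.20) and Gria3 (-0.30 ± 0.17) were not called (adjusted p = 0.28 to 0.46).

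Of the GABA receptors and interneuron genes 5 of 27 fell, with a median of -0.37: the receptor subunits Gabrd (-1.40 ± 0.32) and Gabrb1 (-0.90 ± 0.19 on 2 Naïve values), the interneuron calcium binder Calb2 (-1.42 ± 0.33), the secreted glycoprotein Reln (-1.20 ± 0.29) and the peptide Cck (-0.80). Gabrd, the extrasynaptic subunit of dentate granule cells, read 0.17, 0.23 and -0.61 in Naïve, -0.65 and -0.05 in Sham and -1.29, -1.54 and -1.57 in TBI rats (adjusted p = 0.028). For Gabrb1, Sham rats at 0.83 and 1.06 lay below TBI rats at 1.13 to 1.31. Parvalbumin (Pvalb, -0.53 ± 0.21) and somatostatin (Sst, -0.15 ± 0.29) were not called.

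Potassium channels fell in 7 of 50 and rose in 0, with a median of -0.46. The fast-spiking channel Kcnc2 read -1.30, -0.92 and -1.35 in Naïve, -2.84 and -2.06 in Sham and -2.44, -3.04 and -3.01 in TBI rats, a fall of 1.64 ± 0.25 on the log2 scale (adjusted p = 0.0062), with -0.83 at a second probe, not called. The inward rectifier Kcnj4 read -3.15, -4.12 and -3.90 in Naïve, -3.07 and -2.91 in Sham and -5.02, -4.97 and -5.10 in TBI rats (-1.31 ± 0.25, adjusted p = 0.015). Sham rats lay with TBI for Kcnc2 and above Naïve for Kcnj4. The leak channel Kcnk3 (-1.70 ± 0.35), the calcium-activated channel Kcnma1 (-0.61 ± 0.15, and -1.08 at a second probe), Kcnb2 (-0.96), Kcna5 and Kcng1 (-1.94 ± 0.47, but 0.98 at a second probe, not called) were the others. Among sodium, calcium and HCN channels 2 of 28 fell, the calcium channel subunits Cacnb4 (-1.36 ± 0.28) and Cacna2d1 (-0.66 ± 0.16), with a median of -0.42.

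Synaptic vesicle release genes fell in 2 of 38, with a median of -0.23, where 1.73% of all tested probes were called lower. The vesicle GTPase Rab3c read -3.14, -3.29 and -3.33 in Naïve, -3.20 and -3.07 in Sham and -4.25, -3.90 and -4.24 in TBI rats and fell by 0.88 ± 0.16 on the log2 scale (adjusted p = 0.013), and complexin 1 (Cplx1) by 0.68 ± 0.16. Snap25 (-0.09 ± 0.17) and synaptophysin (Syp, -0.20 ± 0.17) had overlapping groups. In cyclic AMP and calcium signalling 4 of 44 fell, with a median of -0.31: Adcy8, the phosphodiesterases Pde1a (-0.75 ± 0.17) and Pde10a (-0.81 ± 0.20), and the kinase Camk1g (-1.24 ± 0.30). Pde10a was lowest in Sham rats, at -1.40 and -1.25 against 0.40 to 0.48 in Naïve and -0.74 to -0.07 in TBI rats. The cyclase Adcy1 (-0.27 ± 0.64), the calmodulin binder Nrgn (0.17 ± 0.24) and hippocalcin (Hpca, 0.41 ± 0.30) were not called.

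These neuronal falls were small and sensitive to the choices made. On the spike-in scale, among the genes of these 6 lists, Adcy8, Kcnc2 and Kcnk3 were still called by name and the list medians ranged from -0.09 to 0.14. With Naïve 1 left out, 0 glutamate receptor subunits, 0 GABA receptors and interneuron genes and 1 of the potassium channels were called by limma, where in the full fit 7, 12 and 21 members were lower at an unadjusted p under 0.05 and the methods' t-test passed 7, 10 and 13. Without TBI 3 the calls were 0, 1 and 1, and without TBI 2 1, 2 and 4. On the shared slide 0 members of these 3 lists were called, with medians of -0.45, -0.33 and -0.35. Of the genes with a value per rat above, Kcnc2 was called with any rat left out. Rab3c and Kcnj4 were lost without TBI 3 or Naïve 1 (adjusted p up to 0.058), and Gabrd without TBI 2, TBI 3, Naïve 1 or Naïve 2 (up to 0.11). Kcnk3 was lost without the same 4 rats (up to 0.080), Cacnb4 without TBI 2, Naïve 1 or Naïve 3 (up to 0.076), Pde1a without TBI 2, TBI 3, Naïve 1 or Naïve 3 (up to 0.092) and Calb2 without TBI 1, TBI 3, Naïve 1 or Naïve 2 (up to 0.11). Grin2b, Gabrb1, Kcng1, Cplx1, Pde10a and Camk1g kept their calls only without TBI 1 (otherwise up to 0.17), Grm8 only without TBI 2 (up to 0.17) and Reln only without TBI 3 (up to 0.097), while Kcnma1 and Cacna2d1 were lost whichever rat was left out (up to 0.11 and 0.13).

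**Figure D5:**
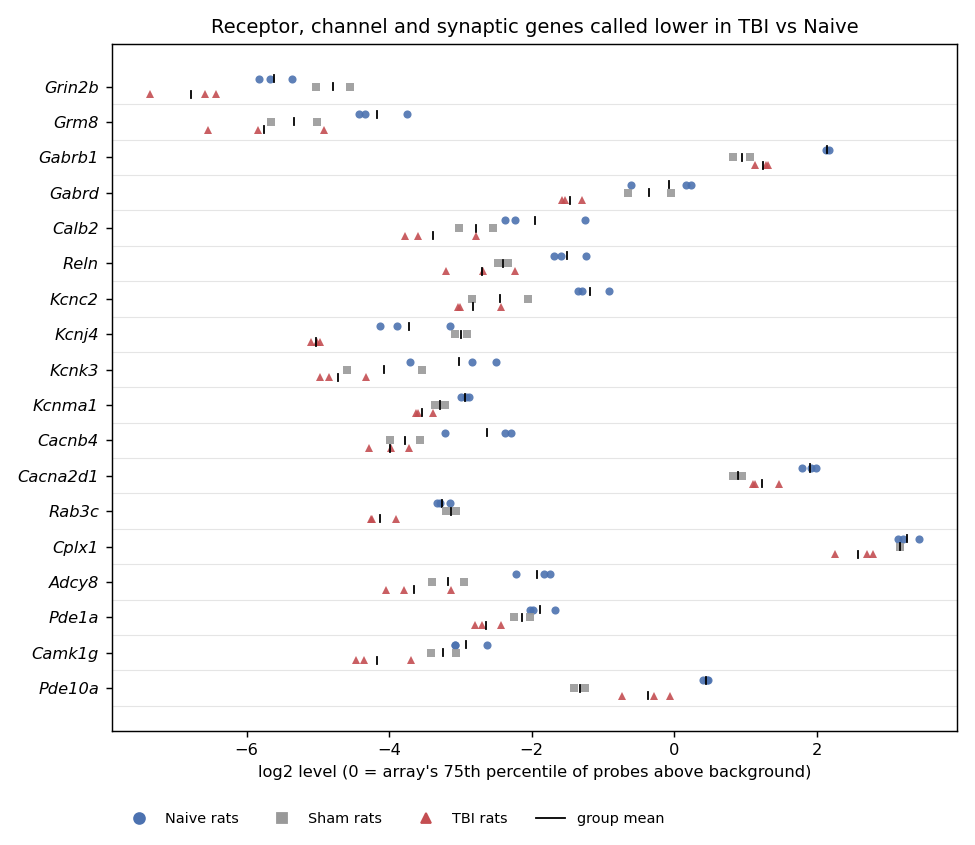
Levels in single rats (log2, with 0 at the 75th percentile of probes above background on the array) for receptor, channel, vesicle and cyclic AMP genes described by name and called lower in TBI vs. Naïve. Circles are Naïve, squares Sham and triangles TBI rats, with bars at the group means. Every triangle lies to the left of every circle in its row, Sham squares lie at or below the triangles for Gabrb1, Cacna2d1 and Pde10a, and Adcy8, Kcnc2 and Kcnk3 were the ones still called on the spike-in scale.

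Markers of dentate granule neurons fell in 3 of 13 and rose in 0, with a median of -0.74, or -0.49 on the spike-in scale with 0 calls. The axon guidance gene Ntng1 read -3.46, -3.17 and -3.59 in Naïve, -4.43 and -4.58 in Sham and -5.08, -4.84 and -4.92 in TBI rats and fell by 1.54 ± 0.24 on the log2 scale (adjusted p = 0.0062), with -0.79 at a second probe, not called. The mossy fibre protein C1ql2 read 0.99, 0.73 and 0.58 in Naïve, 1.07 and 1.10 in Sham and -1.43, -0.18 and -0.48 in TBI rats, a fall of 1.47 ± 0.38 (adjusted p = 0.044). Ntng1 was called with any rat left out, and C1ql2 was lost whichever rat was left out (adjusted p up to 0.15). Rfx3 was at least 1.57-fold lower and kept its call only without Naïve 2 (otherwise up to 0.15). The list median was -0.68, -0.65 and -0.71 in TBI 1 to 3, without the gap between TBI 1 and the others seen for the rises.

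Markers of new-born neurons fell in 3 of 12, doublecortin (Dcx, -0.72 ± 0.17), Calb2 and Ncam1 (-1.09 ± 0.27), with a median of -0.40 that became -0.03 on the spike-in scale, where 0 were called. Dcx read -1.06, -0.65 and -0.67 in Naïve, -1.35 and -1.41 in Sham and -1.44, -1.66 and -1.44 in TBI rats (adjusted p = 0.033), and was lost without TBI 2, TBI 3, Naïve 2 or Naïve 3 (adjusted p up to 0.11), and Ncam1 without TBI 2, TBI 3, Naïve 1 or Naïve 3 (up to 0.145). Among 23 general neuronal markers 1 fell, beside 1.73% of all tested probes called lower. It was Elavl4 (-1.0 ± 0.25, lost whichever rat was left out, with an adjusted p up to 0.135). Rbfox3, below background in all 6 rats, and Eno2 (-0.19 ± 0.16) were not called. Of 17 markers of CA1 and CA3 pyramidal neurons 0 were called by limma, with 1 higher and 3 lower at an unadjusted p under 0.05 and 1 passing the methods' t-test, and the median was 0.07.

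Markers fitted brain tissue, in that the neuronal, astrocyte and oligodendrocyte lists were well above background in all groups, with 21 of 23 neuronal and 19 of 20 homeostatic astrocyte markers above background on all 6 arrays. These lists do not separate the hippocampus from its neighbours. Markers of thalamus and neighbouring regions fell in 1 of 17 (Calb2, also in the interneuron and new-born neuron lists). Their median was -0.54, with 15 negative and 5 lower at an unadjusted p under 0.05 by limma. On the spike-in scale the median was -0.17 with 0 calls, and a part of dissection was not tested. Oligodendrocyte and precursor markers had 0 calls of 30 (limma), with 6 lower at an unadjusted p under 0.05 and 1 by the methods' t-test. Their median was -0.20, and without TBI 1 it was -0.56, with 6 called lower. The list median was 0.20, -0.42 and -0.67 in TBI 1 to 3 and 0.40 and 0.69 in the Sham rats. Endothelial and blood-brain barrier markers had 0 calls of 27, with 2 higher and 1 lower at an unadjusted p under 0.05 and 1 by the t-test, and the tight junction gene Cldn5 read -0.19 ± 0.29. Haemoglobin and other blood markers had 0 calls of 12, with 1 at an unadjusted p under 0.05 and 0 by the t-test, and their summed level was 5.94 to 7.48 in Naïve and 6.12 to 6.85 in TBI rats. Pericyte and leptomeningeal markers fell in 1 of 22 (Dcn), beside 1.73% of all tested probes, with a median of -1.06 that was -0.15 without Naïve 2 and -0.05 on the shared slide. Choroid plexus markers had 0 calls of 20, with 1 at an unadjusted p under 0.05 and 0 by the t-test, and a summed level of 2.48, 6.40 and 2.40 in Naïve, 7.07 and 3.33 in Sham and 2.74, 1.56 and 1.39 in TBI rats, and a median of -0.69 that turned to 0.31 without Naïve 2.

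Cholesterol genes had 0 calls of 30 by limma, with 2 higher and 7 lower at an unadjusted p under 0.05 and 7 lower by the methods' t-test, and Hmgcs1, the entry enzyme of the pathway, read -0.67 ± 0.19 (adjusted p = 0.066). Hypoxia and glycolysis genes had 0 calls of 32, with 2 higher and 3 lower at an unadjusted p under 0.05 and 5 by the t-test, and Gapdh read -0.26 ± 0.18. The next lists are read beside the 2.98% of all tested probes called higher and 1.73% called lower. Clock genes rose in 1 of 18, Bhlhe41, which was above background in neither group and above it in both Sham rats (-5.01 and -5.41), while Per1 (-0.27 ± 0.45) and Nr1d1 (-0.15 ± 0.32) were not called. In the Notch pathway Dll3 (-0.94 ± 0.19) and Hes6 (-0.83 ± 0.22) fell and the modifier Lfng rose (1.04 ± 0.27) among 26 tested, and Hes5 read -1.76 ± 0.67 (adjusted p = 0.15). Among glucocorticoid-responsive genes Tsc22d3 fell by 0.73 ± 0.18 on the log2 scale and Fkbp5 read 0.56 ± 0.34 (adjusted p = 0.38). Hes6 was lost whichever rat was left out (adjusted p up to 0.19), Lfng without any rat but TBI 1 (up to 0.15), Tsc22d3 without TBI 2, TBI 3, Naïve 2 or Naïve 3 (up to 0.14) and Dll3 without TBI 2 or Naïve 3 (up to 0.065).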

How the data were processed

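Single-colour Agilent arrays of 16 rats were used, 1 rat each. The authors amplified poly(A)+ RNA with 1 of 2 kits (which rat had which is not stated) and scanned the arrays with Feature Extraction 9.5.3.1, per the file headers. The deposited intensity is background subtracted and not normalized between arrays. A matrix of ratios to each array's 75th percentile, made by the authors, served as an alternative.

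Spots flagged as outliers were left out, intensities averaged by probe and divided by the array's 75th percentile of probes well above background, and log2 taken. Probes above background on all arrays of at least 1 of 6 groups were tested (22827 of 30367) in 1 limma fit over 16 arrays (10 residual degrees of freedom). The code of the fit was run on simulated arrays. These had no slide, session or rat effects, so they cannot show how such effects bear on the calls. A drug array's spread thus counts in every SE. Symbols came from RefSeq by accession (17679 probes), symbol (2509) or synonym (697), with 166 array names kept and 9316 probes unnamed. In a list each gene counts by its brightest probe. "At least" folds are bounds where a group is below background on all its arrays. With 3 rats a group, the number of arrays limits the precision. Slides and 2 scanning sessions come from the file headers.

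Members, lists and alternatives were chosen with earlier results of these data known. Named genes are the 12 largest rises and falls above background in both groups without overlap, up to 5 bounded ones each way, up to 4 called and 2 bright uncalled members of each list, and genes fixed by symbol (Il6, among them, was not tested); further called list members, given without SE, were named to complete counts after their values were seen. Some called members counted in lists are not reported here. The replicate numbers did not pair the rats (correlations of same-numbered deviations 0.038, 0.059 and -0.011). R 4.3.3, limma 3.58.1, data.table (version 1.17.8), Python 3.11.15, pandas 2.3.3 and matplotlib 3.10.9 were used.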

Additional observations from a re-analysis of the deposited data

How the results depend on the processing

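The 1074 calls became 1846 with the 75th percentile over all probes, 1969 with a GC trend removed, 2288 with array weights and 3168 by the methods' t-test (equal variances, unadjusted, over 1.2-fold). They became 40 with the normexp background correction, 670 without a filter on dim probes, 15 and 44 in fits of the 6 or 8 arrays alone, 43 with slide as a fixed block, 215 within the shared slide, 1 by the methods' t-test after adjustment and 0 by Welch's test after adjustment (2440 at an unadjusted p under 0.05). Leaving out each rat gave 283 to 2038. Quantile normalization (1266), the authors' matrix (1349), spike-in scaling (938), slide as a random block (1600), probes above background on all 16 arrays (1261) or on every TBI or Naïve array (1551) and a 2-fold limit (775) stayed within 1.5 times.

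With the replicate number as a block 0 probes were called by limma and 3817 had an unadjusted p under 0.05, and since the numbers did not pair the rats the block was not used further.

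The directions of the named calls held under the alternatives except for Slc27a5 (0.0699), Rfx3 (0.19), Grin2b (0.30), Fam20a (0.0306) and Dll3 (0.0066), which were lower in TBI here and turned positive with normexp. All 5 are dim, and the cause was not tested. The named calls were made on these same arrays, so a kept direction is no separate support for them under any of the alternatives. Few rats and dim probes limit the precision.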
